A study of Caenorhabditis elegans and Caenorhabditis briggsae
Caenorhabditis elegans with 146 samples.

Results

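The sperm protein genes examined here are 58 genes of *Caenorhabditis elegans* whose public names begin with msp, ssp, ssq or spe and end in a number. They were picked by name from a table of 20411 genes, with no measured value used. They comprise 30 *msp* genes, 7 *ssp* genes, 4 *ssq* genes and 17 *spe* genes.

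Nematode sperm lack a flagellum and crawl by means of a pseudopod. The major sperm protein (MSP), encoded by the *msp* family, polymerises into the filaments that drive this movement, and MSP released from sperm also signals oocytes to mature. The *ssp* and *ssq* families encode other sperm-specific proteins, of classes P and Q, whereas the *spe* genes were named from mutants with defective sperm and encode unrelated proteins. Hermaphrodites make sperm late in larval life before switching to oocytes, whereas males make sperm throughout adult life.

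Polyadenylated RNA of whole embryos and larvae was sequenced from 79 libraries in 23 groups, to follow how the dosage compensation complex (DCC) lowers X-linked transcripts over development. The sexes were compared as N2, the wild type strain, all hermaphrodites, against BS553, which carries *fog-2(oz40)* and breeds only by out-crossing. Its XX animals are females without self-sperm, so its progeny are of mixed sex. Because each sex comparison is also a comparison of strains, sex and strain cannot be told apart. Early embryos were released by bleach from young adults, comma embryos were aged for 4 h, and L1 and L3 larvae were grown for 6 h and 24 h. DCC mutants were CB428 *dpy-21(e428)* and *dpy-27(y56)* from the balanced strain MK4 *dpy-27(y56)*/qC1. Homozygous *dpy-27* embryos came from homozygous mothers and lacked both the maternal and the zygotic product, and embryos labelled heterozygous served as a further group. *dpy-27* was also depleted by RNAi in N2 and compared with vector RNAi. MT14911 *set-4(n4600)* and SS1075 *set-1(tm1821)*/hT2g carry mutations in histone H4 methylases. SS1075 homozygotes and heterozygotes were picked by GFP, and their stage is L2 in the labels but L3 in the column names. The *dpy-21* and *set-4* strains were sampled as mixed-stage embryos and as L3 larvae, the latter set against N2 L3 libraries labelled collection 2. Another 6 libraries were L1 larvae of N2 and *set-4* mixed with *C. briggsae* AF16 larvae as a spike-in.

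No member lies on the X chromosome. All 58 matched the RefSeq annotation of assembly WBcel235 by locus tag. The *msp* genes split into 13 on chromosome II and 17 on chromosome IV, and the 4 *ssq* genes and 4 of the 7 *ssp* genes also lie on IV. The *spe* genes are spread over chromosomes I (7), III (2), IV (4) and V (4). Many *msp* genes sit close to other members. Of the 30, 21 lie within 2 protein-coding genes of another member of any family, as do 4 *ssp*, 2 *ssq* and no *spe* genes. For *msp-77* the only such neighbour is *ssp-32*, and for the rest it is an *msp* gene. Among the neighbours are *msp-59* (WBGene00003452, ZK354.11) with *msp-65*, *msp-142* (WBGene00003469, K05F1.2) with *msp-63*, and *ssp-9* (WBGene00006038, E03H12.10) with *ssp-11* and *ssq-2*. Because *msp* genes are near-identical in sequence, reads of one can be given to another, and a level of a single *msp* gene is less certain than the family sum.

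Members of the *msp* and *ssq* families moved together from library to library more than those of *ssp* or *spe*. Over the 78 distinct libraries the median Pearson correlation of log2 FPKM was 0.665 within *msp* (435 pairs, from 0.0167 to 0.975), 0.684 within *ssq* (6 pairs), 0.372 within *ssp* (21 pairs) and 0.106 within *spe* (136 pairs). These are descriptions, since the libraries share stages and the genes share reads. The pairs most alike were *msp-19* with *msp-53* at 0.975, *msp-77* with *msp-79* at 0.960 and *ssp-9* with *ssp-11* at 0.950. The *msp* genes correlated more closely with *ssq* (median 0.502) than with *ssp* (0.393) or *spe* (0.126).

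Between 12040 and 17712 genes were above 0 in a library. The depth of each library relative to replicate 1 of N2 L3, read from the smallest steps of the values, ran from 0.406 in *dpy-27* early embryo replicate 3 to 2.83. That shallow library is listed at 0 for every *msp* gene. The libraries labelled N2 L1 replicate 3 and BS553 L1 replicate 1 hold identical values for 20376 genes. They may be a single library under both labels and were left out of both groups in every test. Another library went against its label. *her-1*, the signal that promotes male development, and *mab-3*, which represses yolk genes in the male intestine, were looked at after the values were seen. The library labelled BS553 L3 replicate 1 was listed at 0 FPKM for *her-1* and at 4.44 for *mab-3*, where N2 L3 *mab-3* was 4.14 to 4.58. BS553 L3 replicates 2 and 3 had *her-1* at 4.76 and 8.49 and *mab-3* at 51.4 and 48.6. L3 results are therefore given with and without replicate 1. The doubt rests on *her-1* and *mab-3*. Other genes listed for the male soma, *lov-1*, *pkd-2* and *klp-6*, were at most 0.180 in BS553 L3 and 0.207 in N2 L3 and did not separate the strains.

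Summed levels of the *msp* genes, in FPKM (fragments mapped to a gene, corrected for transcript length and library size), had group medians from 0.806 in BS553 L1 larvae to 136.8 in BS553 L3 larvae. These medians count the duplicated L1 library under both of its labels, and 0.806 is the sum of that library itself. They were high in 3 settings. In N2 early embryos the *msp* sum was 91.4, 47.8 and 100.3 in replicates 1 to 3. In BS553 early embryos it was 37.2, 39.1 and 64.4. In the L3 libraries labelled BS553 replicates 2 and 3 it was 136.8 and 177.0. Every other library was at most 33.6, with the exceptions of 84.4 (N2 L1 replicate 2), 70.9 (N2 L3 collection 2 replicate 4) and 78.4 (*dpy-21* L3 replicate 4). In whole-animal libraries fewer sperm or germ cells and less RNA per cell cannot be told apart.

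**Figure D1:**
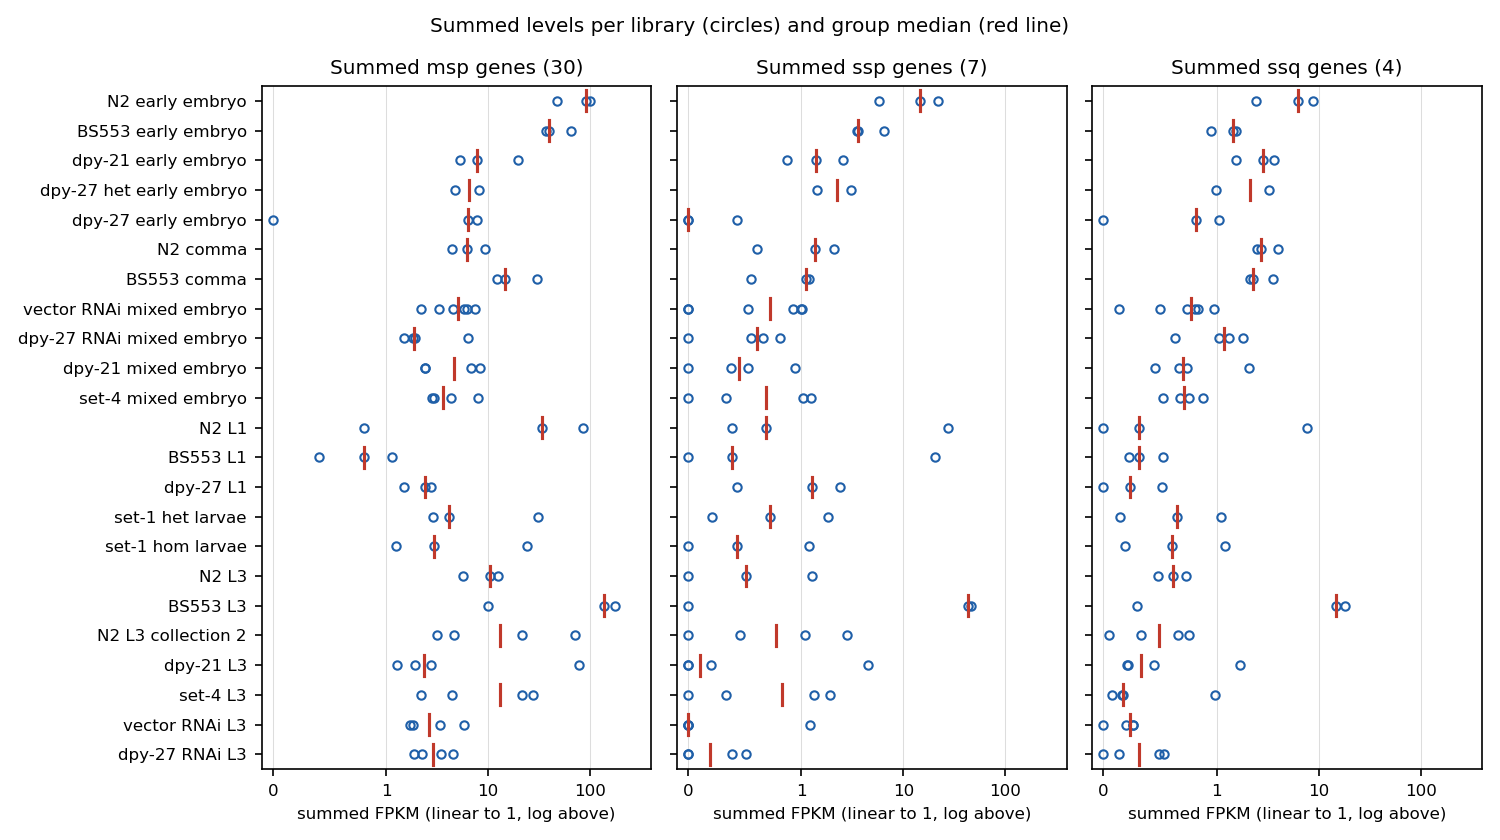
Summed FPKM of the *msp*, *ssp* and *ssq* families (horizontal axes, linear to 1 and logarithmic above) in each library (circles) of the 23 groups (rows), with the group median as a red line. The N2 early embryo libraries lie at 47.8 to 100.3 for *msp*, BS553 L3 holds 1 library at 9.98 and 2 at 136.8 and 177.0, and most other groups lie lower.

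All 30 *msp*, 7 *ssp* and 4 *ssq* genes passed 1 FPKM in at least 1 library, whereas 5 of the 17 *spe* genes did not. The member most often above 1 FPKM outside *spe* was *msp-76* (WBGene00003463, ZK1251.6), an MSP gene of chromosome IV, in 33 of 79 libraries. By contrast *msp-63* and *msp-32* passed 1 FPKM in 2 libraries each. The highest single level of the *msp*, *ssp* and *ssq* genes was 18.8 FPKM, for *ssp-16* (WBGene00006044, T27A3.3) in BS553 L3 replicate 3. That library held the highest level of 17 of the 30 *msp* genes, all 4 *ssq* genes and 2 *ssp* genes. N2 early embryo replicate 3 held the highest level of another 5 *msp* genes and of *ssp-19*, which passed 1 FPKM there alone, at 1.42. The highest level reached by an *msp* gene ran from 1.57 for *msp-32* to 16.8 for *msp-76*.

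In early embryos the question was whether hermaphrodite and mixed sex progeny differ. Of the 31 members above the filter, a mean of the 2 group means over 1 FPKM, 5 were higher in N2 and none was lower (limma, Benjamini-Hochberg adjusted p under 0.05). Over all genes tested, 6.84% were called higher and 8.73% lower. The 5 were *msp-142*, *msp-59*, *msp-55*, *ssq-4* and *ssp-9*. The median log2 difference, N2 minus BS553, was 0.98 over the 31 members and 0.00 over all genes, and 0.68 over the members with a pseudocount of 1 in place of 0.1. Of the genes called, *msp-142*, *msp-55* and *ssq-4* averaged under 1 FPKM in BS553 and passed the filter only through N2. Neither the count nor the median over the 31 therefore stands as support. With no filter no member was called, and the N2 mean was higher for 42 of the 58, against 36.1% of all genes.

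*msp-142* was at 3.45, 1.07 and 4.82 FPKM in the N2 replicates, where BS553 had 0.18, 0.40 and 0.00. The groups did not overlap, and the log2 difference was 3.59 (SE 0.80, adjusted p = 0.0252). *msp-59* was at 6.81, 3.30 and 7.63 in N2 and at 0.64, 0.67 and 1.72 in BS553, with a log2 difference of 2.57 (SE 0.50, adjusted p = 0.0170). *msp-55* was at 4.37, 2.60 and 5.35 against 1.13, 0.85 and 0.28, a log2 difference of 2.50 (SE 0.51, adjusted p = 0.0196). In all 3 MSP genes the lowest N2 library, replicate 2, stood above the highest BS553 library.

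The class P and Q genes called showed the same order of libraries. *ssp-9* was at 4.58, 2.19 and 7.06 in N2 and at 1.399, 0.67 and 1.36 in BS553 (log2 difference 1.93, SE 0.50, adjusted p = 0.0385). *ssq-4* (WBGene00006053, T28H11.1) was at 3.07, 1.18 and 3.46 against 0.48, 0.45 and 0.46 (log2 difference 2.21, SE 0.51, adjusted p = 0.0288). The summed *ssq* level was 6.32, 2.45 and 8.78 in N2 and 1.56, 0.95 and 1.46 in BS553, so these sums did not overlap, whereas the *msp* and *ssp* sums did. For *ssp* they were 14.7, 5.73 and 22.0 against 3.57, 3.52 and 6.46. Groups did not overlap, with N2 higher, in 7 of the 31 members tested, against 13.2% of all genes tested, and with BS553 higher in 2, against 23.4%. The filter, which some members passed only through N2, bears on these counts too, so they do not stand as support.

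The *msp* genes did not all follow this order. *msp-76* was at 7.45, 4.53 and 5.32 in N2 and at 6.43, 4.19 and 10.7 in BS553, so the groups overlapped and the log2 difference was -0.13. *msp-10* and *msp-81*, neighbours on chromosome IV, had log2 differences of 0.05 and 0.10. The chromosome II genes summed to 19.6, 9.21 and 27.2 in N2 and to 6.98, 8.48 and 7.31 in BS553, with no overlap. The chromosome IV genes summed to 71.8, 38.6 and 73.1 against 30.3, 30.6 and 57.1, which overlapped. The calls rested on few libraries, since none was left without N2 replicate 1 or without N2 replicate 3, 1 was left without BS553 replicate 1 or replicate 2, and 11 were made without BS553 replicate 3.

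Other sperm genes of the list prepared here, of which 14 of 22 are in the table, did not all lie on one side. *gsp-3*, a protein phosphatase of sperm, was at 5.36, 2.45 and 4.35 FPKM in N2 libraries, against 0.35, 0.07 and 0.00 in BS553. *msd-4*, a small MSP-domain gene, was at 5.55, 1.48 and 7.57 against 0.00, 0.27 and 0.62, and neither gene's groups overlapped. Also higher in N2 without overlap were *gsp-4*, at 0.57 to 1.79 against 0.06 to 0.15, and *fog-3*, at 5.83 to 9.20 against 2.19 to 4.57. By contrast *fog-1* was higher in every BS553 library, at 7.06, 7.06 and 11.8, than in N2, at 5.07 to 6.60. All 14 summed to 133.1 to 161.9 in N2 and 101.2 to 146.5 in BS553, most of it *elt-1*, a factor also active in embryonic epidermis, at 85.7 to 137.5 and 74.0 to 127.4. The yolk protein genes *vit-2* to *vit-6* summed to 5.28 to 10.2 in N2 and to 5.79, 6.81 and 44.5 in BS553, and the muscle genes *unc-54* and *myo-3* to 1.85 to 3.07 and 7.29 to 11.6. The part of these in the differences above was not tested.

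In the DCC mutants the *msp* and *ssp* sums were low in early embryos. The comparisons of *dpy-27*, *dpy-27* heterozygous and *dpy-21* embryos all use the same 3 N2 libraries, as does the sex comparison, so their values are given side by side and agreement between them is not a repeat of the result. The *msp* sum was 6.41, 7.80 and 0.00 in *dpy-27*, 8.23 and 4.71 in the heterozygotes and 5.27, 7.83 and 19.8 in *dpy-21*. All 8 mutant libraries lay below the lowest N2 library at 47.8. The *ssp* sums were at most 0.43 in *dpy-27*, at most 3.05 in the heterozygotes and at most 2.59 in *dpy-21*, below the N2 range of 5.73 to 22.0. The *ssq* genes were less uniform. In the heterozygotes *ssq-1*, *ssq-2* and *ssq-4* overlapped N2, and *ssq-3* lay below it.

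**Figure D2:**
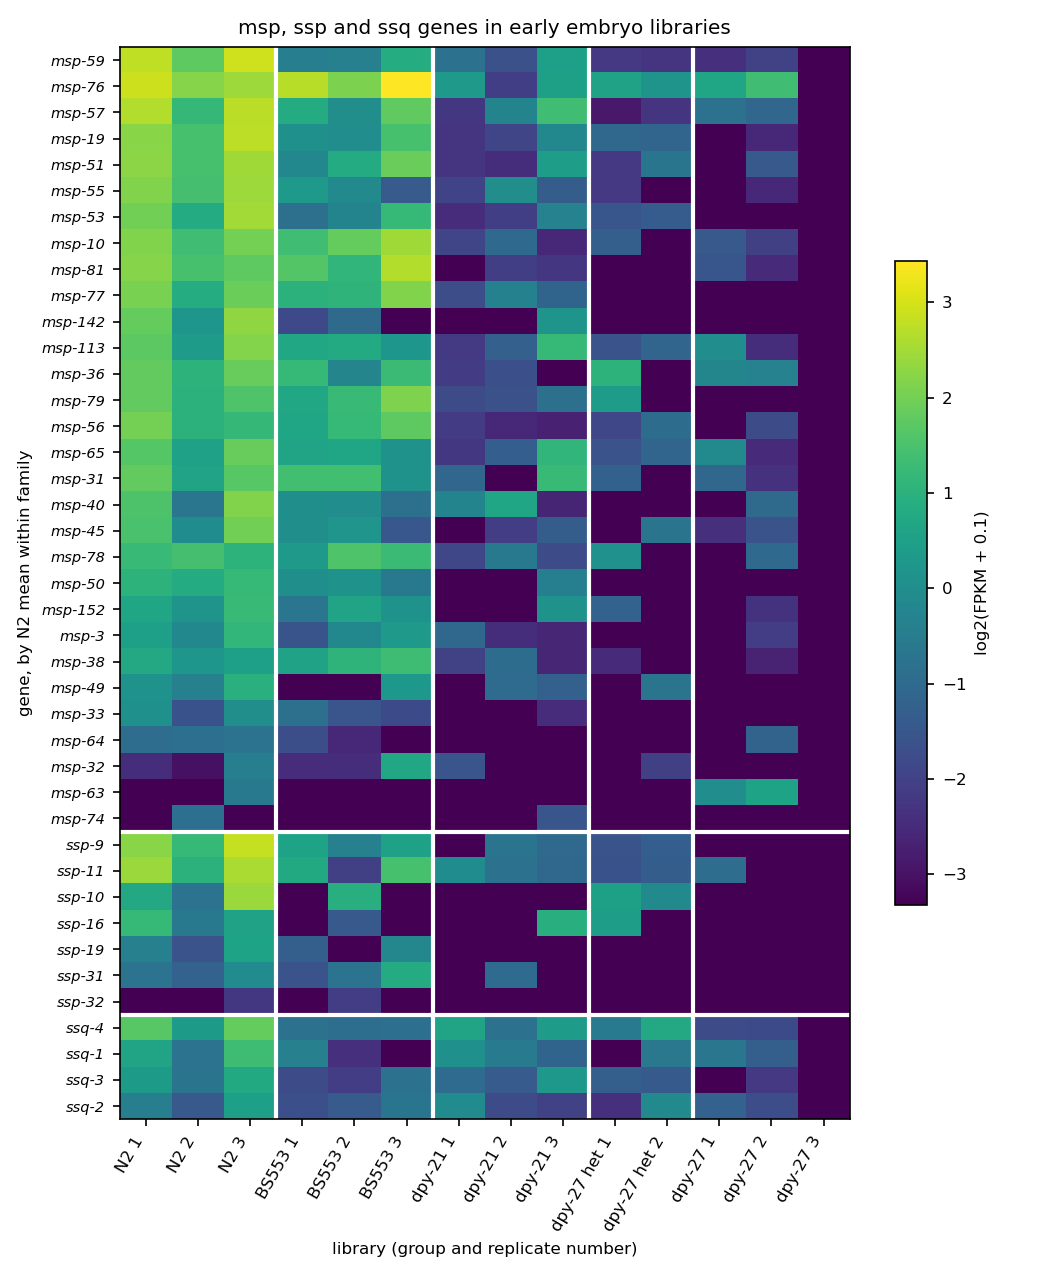
Level of each of the 41 *msp*, *ssp* and *ssq* genes (rows, ordered by N2 mean within family) in the 14 early embryo libraries (columns, by group and replicate), as log2(FPKM + 0.1) in colour, with white lines between groups and families. N2 and BS553 are bright over most *msp* rows, where the *dpy-21* and *dpy-27* libraries are dark, and *dpy-27* replicate 3 is at 0 in every *msp* row.

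In *dpy-27* embryos, 27 members passed the filter, of which 23 were called lower than in N2 and none higher, where 21.8% of all genes tested were called lower and 26.2% higher. These members passed mainly through their N2 level, so the count does not stand as support, and over all 58 with no filter the mean was lower in 49, against 37.2% of all genes. Libraries did not overlap, with *dpy-27* lower, in 25 of the 27, against 22.1% of all genes tested. The filter bears in the same way on this count and on the median that follows, so neither stands as support. The median log2 difference over the 27 was -4.18, or -1.81 with a pseudocount of 1, against -0.04 over all genes. *msp-59* was at 0.09, 0.15 and 0.00 FPKM in *dpy-27* (log2 difference -5.15, SE 0.64, adjusted p = 0.000734), and *msp-19* at 0.00, 0.07 and 0.00 against 4.57, 2.67 and 6.65 in N2 (-5.28, SE 0.66, adjusted p = 0.00078). *msp-53*, *msp-77*, *msp-79*, *msp-142*, *ssp-9* and *ssp-10* were listed at 0 in all 3 *dpy-27* libraries. They were above 0 in every N2 library, and no fold is given for them. *ssq-4* was at 0.19, 0.19 and 0.00 (log2 difference -3.68, adjusted p = 0.0065).

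*msp-76* stayed above most other members in *dpy-27* embryos, at 1.498, 2.45 and 0.00 FPKM. Its log2 difference from N2 was -3.06 and did not pass (adjusted p = 0.0528). Leaving out N2 replicate 1 or replicate 3 reduced the number called lower to 14 and 15. Without *dpy-27* replicate 3, the shallow library, 24 were called.

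In heterozygotes 18 of 28 members tested were called lower and none higher, where 2.27% of all genes tested were lower and 12.7% higher. The groups did not overlap, with the heterozygotes lower, in 22 of the 28, against 21.4% of genes tested. Again the members passed mainly through N2, and over all 58 the mean was lower in 52, against 40.1% of genes. *msp-59* was at 0.12 and 0.10 FPKM (log2 difference -4.72, SE 0.55, adjusted p = 0.0093), *msp-55* at 0.12 and 0.00 (-4.81, SE 0.61, adjusted p = 0.0095) and *msp-57* at 0.04 and 0.10 (-4.69, SE 0.67, adjusted p = 0.0111). *msp-40*, *msp-77*, *msp-81* and *msp-142* were listed at 0 in both heterozygous libraries. *msp-76*, at 1.37 and 1.03, was lower by a log2 difference of -2.12 (SE 0.40, adjusted p = 0.0221). Here the call rested on the N2 libraries, with 4, 5 and 0 members called without N2 replicate 1, 2 and 3. Between homozygotes and heterozygotes only 4 members passed the filter. Limma called none of them, with none at an unadjusted p under 0.05, and it called 0% of all genes tested. The *msp* sums overlapped, whereas the *ssp* sums did not, at 0.43, 0.00 and 0.00 in homozygotes and 3.05 and 1.43 in heterozygotes. *ssp-10*, listed at 0 in the homozygotes, was at 1.32 and 0.83, and *ssq-4* was at 0.59 and 1.58 in the heterozygotes. Neither gene passed the filter.

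In *dpy-21* embryos 7 of 29 members tested were called lower and none higher, where 3.19% of all genes tested were lower and 2.83% higher. The groups did not overlap, with *dpy-21* lower, in 20 of the 29, against 27% of genes tested. Here too the filter was passed mainly through N2, and over all 58 the mean was lower in 50, against 50% of all genes. All 7 are *msp* genes. *msp-81* was at 0.00, 0.14 and 0.11 FPKM against 4.54, 2.65 and 3.29 in N2 (log2 difference -4.16, SE 0.68, adjusted p = 0.0327), and *msp-56* at 0.12, 0.07 and 0.05 against 3.94, 1.93 and 2.17 (-3.69, SE 0.66, adjusted p = 0.0350). *msp-36* (-3.71), *msp-10* (-3.42), *msp-19* (-3.41), *msp-59* (-2.93) and *msp-79* (-2.65) had adjusted p between 0.0389 and 0.0428. In each of the 7 the 3 *dpy-21* libraries lay below the 3 N2 libraries. The count depended on single libraries. Without *dpy-21* replicate 3, which had the highest *msp* sum of its group at 19.8, 22 members were called lower and 1 higher, where 24% of all genes were lower and 25.3% higher, whereas none was called without any one of the other 2 *dpy-21* or the 3 N2 libraries.

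Markers of embryo age moved with these differences. The muscle genes *unc-54* and *myo-3*, which are switched on later in embryogenesis, summed to 1.85 to 3.07 FPKM in N2 early embryos. They summed to 49.2, 89.5 and 122.8 in *dpy-27*, to 97.7 and 311 in the heterozygotes and to 99.98, 49.3 and 5.72 in *dpy-21*. Within *dpy-21* the library with the lowest muscle sum, replicate 3, had the highest *msp* sum. The 8 oogenesis genes summed to 569 to 787 in N2 and to 287 to 562 in the 3 mutant groups. Such a sum can rest on a few genes of the list, so it does not show that each of them was lower. For *vit-2* to *vit-6* the sums were 5.28 to 10.2 in N2 and 0.321 to 0.965 in the mutant groups. The part of these markers in the *msp* difference was not tested.

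Over N2 development the sperm protein genes fell between the early embryo and the comma embryo. The *msp* sum went from 47.8 to 100.3 down to 9.29, 6.24 and 4.38, and the *ssp* sum from 5.73 to 22.0 down to 0.61 to 2.10. Of 29 members tested, 25 were called lower and 2 higher, where 39.3% of all genes tested were lower and 45.3% higher. Most passed the filter through the early embryo, and over all 58 the mean was lower in 50, against 40% of genes. *msp-59* was at 0.02, 0.42 and 0.07 in comma embryos (log2 difference -4.75, SE 0.63, adjusted p = 0.000181). *ssp-9* and *ssp-11* were each at 0.19, 0.00 and 0.13 (-4.51 and -4.44), and *msp-142*, *msp-31*, *msp-19*, *msp-51* and *msp-53* differed by -4.31 to -3.97. The count was 24 to 28 with any 1 library left out.

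The *ssq* genes split at this step. *ssq-4* fell by 3.51 on the log2 scale, from 3.07, 1.18 and 3.46 to 0.25, 0.14 and 0.03 (adjusted p = 0.000638). *ssq-1* was at 1.43, 0.49 and 2.42 in early and at 2.38, 2.13 and 1.80 in comma embryos, which overlapped (log2 difference 0.70, adjusted p = 0.258). As a result the *ssq* sum of 2.51 to 4.02 in comma embryos overlapped that of early embryos.

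Comma embryos of BS553 had *msp* sums of 12.3, 14.6 and 30.3, all above the 3 N2 sums. By gene, none of the 5 members above the filter was called, where 0.0683% of all genes tested were called, and 2 members had an unadjusted p under 0.05. *msp-76* was at 1.72, 2.13 and 2.86 in BS553 and at 1.46, 0.18 and 0.44 in N2, with no overlap (log2 difference -1.84, adjusted p = 0.431). *ssp-9* and *ssp-11* were listed at 0 in all 3 BS553 libraries, so the *msp* order did not extend to them.

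In N2 L1 larvae the 2 libraries left after removing the duplicated one held sperm protein genes of different kinds. Replicate 1 had an *msp* sum of 33.6 of which *msp-63* made up 10.3 and *msp-45* 9.78, and an *ssp* sum of 27.2 made up of *ssp-31* at 15.6 and *ssp-32* at 10.5. Replicate 2 had an *msp* sum of 84.4 spread over 27 *msp* genes above 0, led by *msp-36* at 10.5 and *msp-50* at 5.57, with an *ssp* sum of 0.69 and an *ssq* sum of 7.61. The duplicated library had an *msp* sum of 0.806. The spike-in N2 L1 libraries, also grown for 6 h, held 0, 4 and 1 *msp* counts, so the high sums were not shared by all N2 L1 libraries. Chromosome II genes held 28.1 of the sum in replicate 1 and 25.1 in replicate 2, and chromosome IV genes 5.56 and 59.4. The yolk genes *vit-2* to *vit-6* summed to 3.21 in replicate 1, to 14.6 in replicate 2 and to 0.55 in the duplicated library, and their part was not tested.

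BS553 L1 replicates 2 and 3 had *msp* sums of 0.406 and 1.15, far below both N2 libraries kept but on either side of the duplicated one. BS553 replicate 2 instead had *ssp-10* at 13.4 and *ssp-16* at 6.999, with an *ssp* sum of 20.4, where replicate 3 was listed at 0. The sexes were not separated by the test. Of 20 members tested none was called (limma), where 0% of all genes tested were called, and 1 had an unadjusted p under 0.05. Groups did not overlap, with N2 higher, in 10 of the 20 against 17.5% of all genes. Most of the 20 passed the filter through the N2 libraries and so had to differ, and over all 58 with no filter the N2 mean was higher in 42, against 51.2% of genes. Without N2 replicate 1, leaving 1 library in that arm, 13 of 27 members were called higher against 4.84% of genes, and leaving out any other library gave none.

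*dpy-27* L1 larvae had *msp* sums of 2.76, 1.502 and 2.41, all below the N2 L1 libraries at 33.6 and 84.4 but above the duplicated one. The spike-in N2 L1 libraries, with few *msp* counts, did not share the high N2 sums. Of 18 members tested none was called, where 0.34% of all genes tested were called, and 5 had an unadjusted p under 0.05. In 10 of them the groups did not overlap, with *dpy-27* lower, against 10.9% of all genes. These too passed mainly through N2, and over all 58 the *dpy-27* mean was lower in 44, against 44.7% of genes. Leaving out an N2 library leaves 1 in that arm, which then sets both the filter and the difference. The number called lower was 14 of 27 without N2 replicate 1, against 5.16% of genes, and 5 of 8 without N2 replicate 2, against 1.96%, and neither count stands as support. From comma to L1, 2 of 22 members were called higher and 1 lower in N2, where 25.5% and 24.3% of all genes were. *msp-74* was listed at 0 in the 3 comma libraries and at 4.70 and 4.11 in L1 (adjusted p = 0.00294). *msp-50* was at 0.00, 0.00 and 0.22 in comma embryos and at 0.65 and 5.57 in L1 (log2 difference 3.83, SE 1.21, adjusted p = 0.0452). Both genes passed the filter only through L1, so these calls do not stand as support. Both were at 0 in the duplicated library and had no count in the spike-in N2 L1 libraries. Over all 58 with no filter the L1 mean was higher in 41, against 53.4% of genes. With a single N2 L1 library in the fit the count was 17 without replicate 1 and 7 without replicate 2, while it was 1 without comma replicate 2.

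From L1 to L3 in N2, none of 20 members was called, where 29.4% of all genes tested were called, and 3 had an unadjusted p under 0.05. The N2 L3 *msp* sums were 10.3, 12.6 and 5.69. Over all 58 with no filter the L3 mean was lower in 46, against 60.8% of genes. With a single L1 library left in the fit, through which the members pass the filter, 11 of 27 were called lower without replicate 1, where 19.8% of all genes were lower, and 5 of 8 were called without replicate 2. A fall to L3 was built into these counts.

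In L3 larvae 2 of the 3 BS553 libraries stood far above N2. Replicates 2 and 3 had *msp* sums of 136.8 and 177.0, *ssp* sums of 43.1 and 45.6 and *ssq* sums of 14.7 and 18.3. The library labelled replicate 1 had 9.98, 0.00 and 0.30, which is within or near the N2 L3 range of 5.69 to 12.6, 0.00 to 1.27 and 0.48 to 0.73. In all, 41 and 43 members were above 1 FPKM in replicates 2 and 3, 5 in replicate 1, and 2 to 4 in the N2 libraries.

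With all libraries none of 37 members tested was called in N2 L3 against BS553 L3, where 0.0157% of all genes were called, and 15 had an unadjusted p under 0.05. Groups did not overlap, with N2 lower, in 12 of the 37, against 9.46% of all genes. Without the library that went against its label, 30 of 39 members were called lower in N2 and none higher, where 3.25% of all genes tested were lower and 1.32% higher. Nearly all of these members passed the filter through the BS553 libraries and so had to differ. With no filter and with all libraries, the N2 mean was lower in 53 of the 58, against 48.3% of all genes. Leaving out any other library gave no call.

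**Figure D3:**
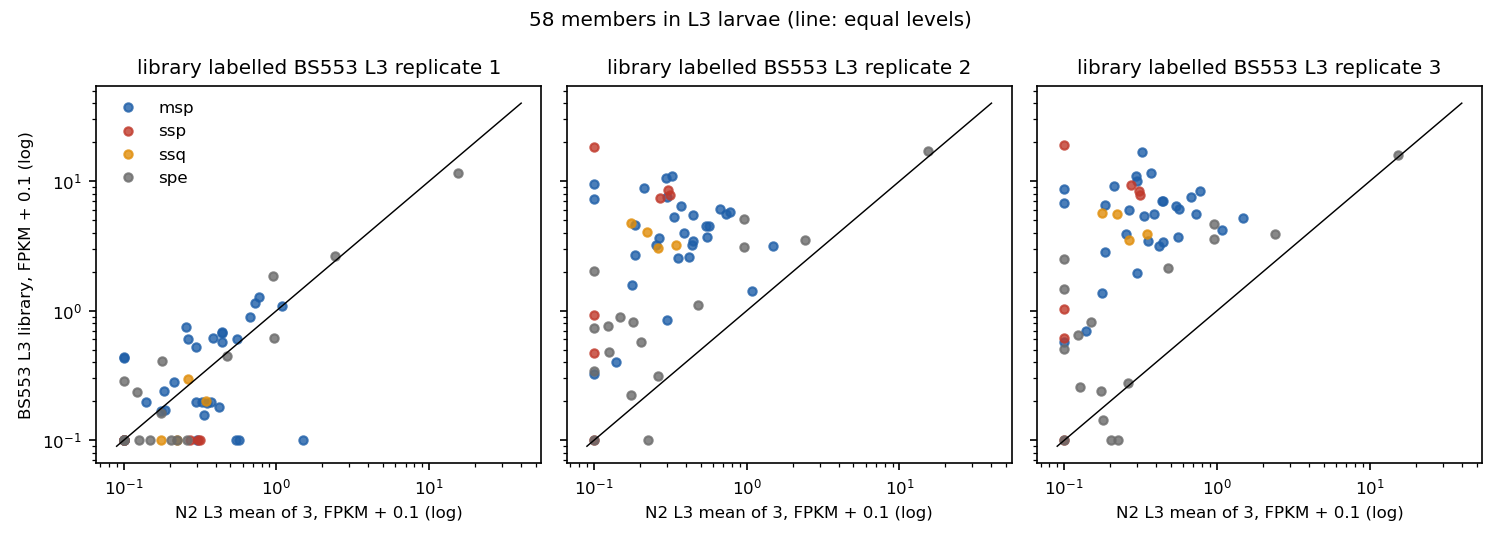
Level of the 58 members in each library labelled BS553 L3 (vertical axes) against the mean of the 3 N2 L3 libraries (horizontal axes), as FPKM + 0.1 on log axes, coloured by family, with the line of equal levels. In replicate 1 the points lie about the line, and in replicates 2 and 3 nearly all *msp*, *ssp* and *ssq* points lie above it while *spe-39* stays on it.

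The member with the highest level was *ssp-16*, listed at 0 in all 3 N2 libraries and at 0.00, 18.4 and 18.8 FPKM in BS553 (adjusted p = 0.337 with replicate 1 and 0.00774 without it). *msp-76* was at 0.35, 0.00 and 0.32 in N2 and at 0.10, 10.9 and 16.8 in BS553, a log2 difference of -3.63 (adjusted p = 0.393) with replicate 1 and -5.66 (SE 0.77, adjusted p = 0.0296) without it. *msp-81* was at 0.05, 0.54 and 0.00 against 0.10, 10.4 and 10.8, and without replicate 1 its log2 difference was -5.68 (SE 0.84, adjusted p = 0.0341). In each of these genes replicate 1 lay with N2 and the other BS553 libraries lay above all others.

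*msp-10*, next to *msp-81*, was at 0.08, 0.26 and 0.00 in N2 and at 0.18, 8.79 and 9.08 in BS553. *msp-142*, among the genes lower in BS553 early embryos, was here at 0.00, 0.60 and 0.00 in N2 and at 0.00, 7.51 and 9.98 in BS553. *ssp-9* and *ssp-11* were at 7.74 and 8.37 in replicate 2 and at 7.79 and 8.27 in replicate 3, against at most 0.38 in N2. *ssq-4* was at 0.09, 0.06 and 0.08 in N2 and at 0.00, 4.68 and 5.57 in BS553 (log2 difference without replicate 1 -4.89, SE 0.37, adjusted p = 0.0136). *msp-40* and *msp-64* were listed at 0 in N2 and at 6.65 to 9.47 in replicates 2 and 3. The *msp* genes tested but not called without replicate 1 were *msp-113*, *msp-152*, *msp-3*, *msp-36*, *msp-50*, *msp-74* and *msp-78*, with log2 differences of -5.37 to -1.25 and adjusted p of 0.0533 to 0.374.

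Among the *spe* genes, *spe-4* and *spe-6* were, like the *msp* sums, higher in BS553 L3 replicates 2 and 3 than in N2 L3. Unlike the *msp* sum, *spe-4* was above all N2 libraries in replicate 1 as well. *spe-4* (WBGene00004958, ZK524.1), a presenilin needed for sorting proteins into spermatids, was at 0.94, 0.83 and 0.80 in N2 and at 1.76, 4.97 and 4.58 in BS553 (log2 difference without replicate 1 -2.36, SE 0.21, adjusted p = 0.0165). *spe-6* (WBGene00004960, Y66D12A.20), a kinase of the casein kinase 1 type, was at 1.07, 0.85 and 0.65 against 0.51, 3.01 and 3.48 (-1.84, SE 0.27, adjusted p = 0.0337). *spe-15* (-0.64, adjusted p = 0.141) and *spe-39* (-0.11, adjusted p = 0.555) were not called. Over the series *spe-4* did not follow the *msp* sums, with group medians of 0.164 FPKM in N2 early embryos and 1.48 in vector RNAi L3.

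Several other sperm genes of the list followed the same libraries. In BS553 L3 replicates 2 and 3, *gsp-3* was at 6.58 and 10.0, its paralog *gsp-4* at 5.24 and 6.14, *msd-4* at 10.5 and 15.2 and *fer-1*, needed for membrane fusion in sperm, at 2.71 and 2.54. All 4 were at most 0.81 in N2 L3 and in replicate 1. By contrast *fog-1* and *fog-3*, which commit germ cells to the sperm fate, were above 10 FPKM in all 6 L3 libraries of both strains. Of the same list, *try-5* was at 0.175 to 0.348 in BS553 L3 and 0.195 to 0.812 in N2 L3. *elt-1* was at 9.51 to 13.1 and 8.12 to 10.2, so the strains overlapped in both genes. Markers outside the sperm lists moved in part with the same libraries. The yolk genes *vit-2* to *vit-6* were low in all, summing to 0.651 to 1.11 in BS553 and 0.585 to 0.786 in N2, whereas *lin-29*, which acts in the change from larva to adult, was at 42.9 and 45.2 in replicates 2 and 3, 25.8 in replicate 1 and 17.7 to 28.9 in N2. The whole list of 7 late larval and adult genes summed to 44.1 and 46.7 in replicates 2 and 3, 26.4 in replicate 1 and 18.4 to 29.8 in N2. The 8 germ line genes of both sexes summed to 246 and 255, 203 and 182 to 231, with *gld-1* at 53.7 and 55.2, 36.4 and 29.9 to 32.1. The part of stage or of the amount of germ line in the sperm gene levels was not tested.

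Among larvae of the mutants and RNAi groups, no member was called in any comparison, and single libraries stood far apart. The *msp* sums were 21.6, 3.14, 4.59 and 70.9 in N2 L3 collection 2, 1.90, 1.28, 2.76 and 78.4 in *dpy-21* and 21.5, 27.3, 2.18 and 4.40 in *set-4*. In *set-1* larvae they were 30.9, 2.89 and 4.16 in heterozygotes and 24.0, 1.24 and 2.95 in homozygotes. In vector RNAi they were 1.70, 3.41, 5.86 and 1.81, and in *dpy-27* RNAi 1.86, 2.26, 3.48 and 4.55. All of these pairs of groups overlapped. *dpy-21* and *set-4* were each compared with the same collection 2 libraries.

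For *dpy-21* L3 12 members were tested and none was called by limma, where 6.96% of all genes tested were called, and 1 (*spe-39*) had an unadjusted p under 0.05. For *set-4* L3 10 were tested, for *set-1* 3 and for *dpy-27* RNAi L3 3, with none called and none at an unadjusted p under 0.05. The shares of all genes called were 0.00801%, 0.0156% and 0.0313%. No call appeared when any 1 library was left out.

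Replicate 4 of *dpy-21* L3 and replicate 4 of collection 2 held much the same *msp* genes. In this order, *msp-76* was at 8.81 and 8.02, *msp-81* at 7.12 and 8.19 and *msp-10* at 6.25 and 7.55 FPKM. Most *msp* signal came from chromosome IV, at 60.3 and 60.6 of the sums. Unlike in BS553 L3, the *ssp* genes were low in both, with *ssp* sums of at most 4.54, *ssp-16* at 0.80 and 0.00 and *msp-142* at 0.54 and 0.15.

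The larval libraries with high *msp* sums were mostly those with high yolk gene sums. In collection 2 the *vit-2* to *vit-6* sums were 19.04, 0.357, 0.605 and 5.12, in *dpy-21* 0.456, 0.480, 0.427 and 4.91, and in *set-4* 22.7, 38.02, 0.388 and 4.97. In *set-1* they were 19.6, 0.241 and 0.501 in heterozygotes and 9.63, 0.464 and 0.787 in homozygotes. *col-19*, a collagen of the adult cuticle, was at 3.18, 0.271, 0.232 and 1.80 in collection 2 and at 6.04 in *dpy-21* replicate 4. It did not follow the *msp* sums in *dpy-27* RNAi, where it was at 2.01, 1.24, 0.808 and 2.55 with low *msp* sums, against at most 0.229 in vector RNAi. Yolk genes are expressed in the adult intestine, so among larvae these can mark older animals. The exceptions were *set-4* L3 replicate 4, with a low *msp* sum of 4.40, and BS553 L3 replicates 2 and 3, with *vit* sums near those of N2 L3 and the highest *msp* sums. High yolk gene levels were not particular to such larvae. In every N2 comma embryo library each of *vit-2* to *vit-6* was at 2.96 FPKM or more, with *msp* sums of 4.38 to 9.29. The part of older animals in the larval *msp* levels was not tested.

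**Figure D4:**
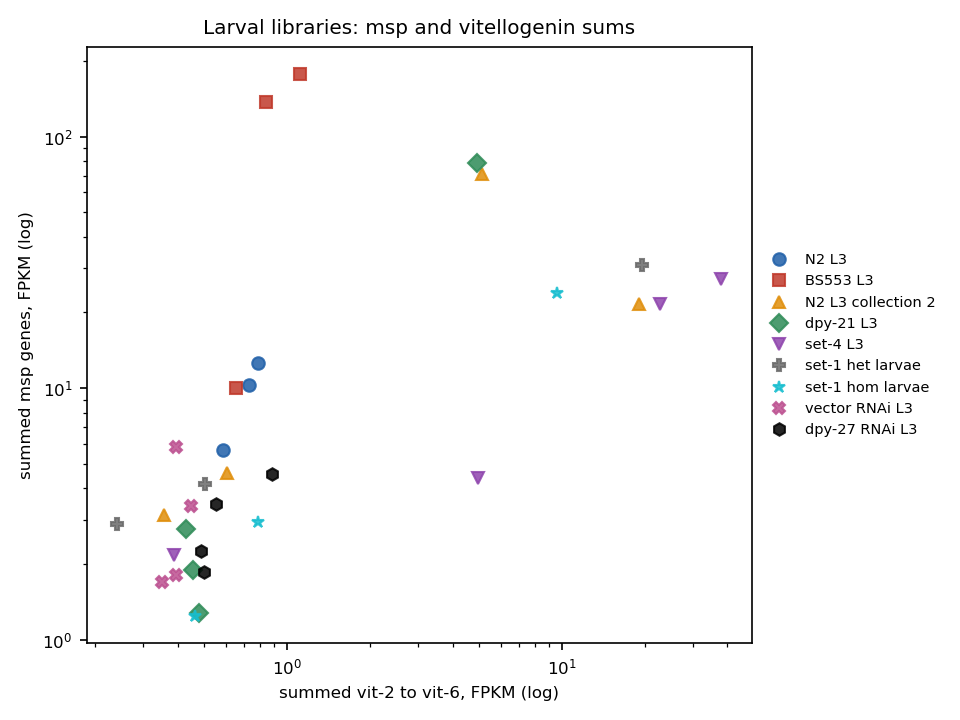
Summed *msp* FPKM (vertical, log axis) against summed *vit-2* to *vit-6* FPKM (horizontal, log axis) in each L3 and *set-1* larval library, by group. Libraries with *vit* sums above 4 lie at *msp* sums of 21.5 to 78.4, except *set-4* L3 replicate 4 at 4.40, and BS553 L3 replicates 2 and 3 lie apart at 136.8 and 177.0 with *vit* sums of 0.841 and 1.11.

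Mixed-stage embryos had low *msp* sums in all groups. They were 8.26, 6.84, 2.43 and 2.38 in *dpy-21*, 7.89, 4.29, 2.83 and 2.94 in *set-4* and 1.48, 1.90, 6.28 and 1.84 in *dpy-27* RNAi. In vector RNAi the 6 libraries ran from 2.21 to 7.42 with a median of 5.12. The groups overlapped. For *dpy-27* RNAi and for *dpy-21* against *set-4*, 3 members were tested in each, limma called none, none had an unadjusted p under 0.05, and 0% of all genes were called. The *vit* sum was high in most libraries with the higher *msp* sums, at 26.4 and 31.0 in *dpy-21* replicates 1 and 2, 19.9 in *set-4* replicate 1, 38.6 in *dpy-27* RNAi replicate 3, and 34.9 and 28.4 in vector replicates 3 and 4. The exception was vector replicate 6, with the highest vector *msp* sum of 7.42 and a *vit* sum of 0.59. The part of older animals was not tested here either.

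The summed level of the *spe* genes rested on a few genes with broad roles. *spe-39* (WBGene00004975, ZC404.3) encodes a partner of VPS33 in transport to lysosomes and is used in many tissues. It was above 1 FPKM in 79 of 79 libraries, from 8.23 to 45.3. *spe-15* (WBGene00004969, F47G6.4), a myosin VI, was above 1 in 78 of 79, and *spe-6* in 30. *spe-4* passed 1 FPKM in 22 libraries. The remaining genes were low, although *spe-9*, *spe-41*, *spe-26* and *spe-42* were above 0 in 74, 73, 71 and 62 of the 79 libraries. *spe-9*, an EGF-repeat protein needed at fertilization, *spe-11*, a paternal factor for egg activation, and *spe-41*, a TRP channel of sperm, passed 1 FPKM in 5 libraries each.

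*spe-10*, a palmitoyltransferase, and *spe-12* and *spe-27*, which act in sperm activation, did so in 1 library each, as high as 2.92, 2.66 and 2.77 FPKM. *spe-8*, a tyrosine kinase of the same activation group, *spe-29*, also of that group, *spe-26*, a kelch-like protein, and *spe-38* and *spe-42*, which act at fertilization, never passed 1 FPKM. The 2.77 for *spe-27* was in *dpy-27* early embryo replicate 3, the shallowest library.

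**Figure D5:**
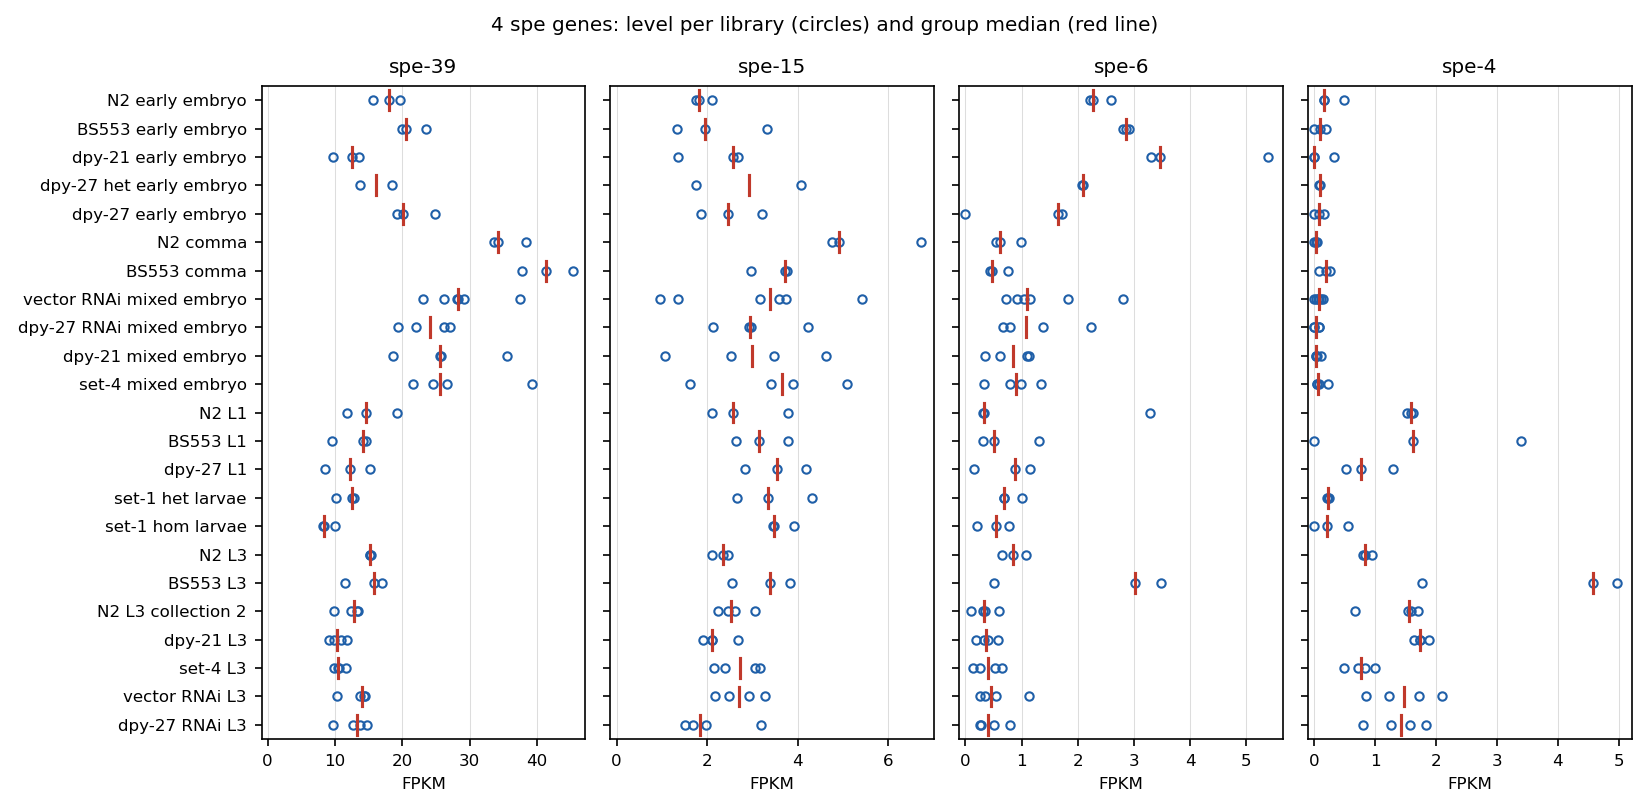
FPKM of *spe-39*, *spe-15*, *spe-6* and *spe-4* (1 panel each) in every library (circles) of the 23 groups (rows), with the group median as a red line. *spe-39* reaches its highest level, 45.3, in BS553 comma embryos, *spe-15* reaches 6.73 in N2 comma replicate 3, *spe-6* is highest in *dpy-21* early embryos, at 3.31 to 5.38, and *spe-4* in BS553 L3 replicates 2 and 3.

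*spe-39* rose from 18.0, 15.7 and 19.6 in N2 early embryos to 33.6, 38.4 and 34.2 in comma embryos (log2 difference 0.95, SE 0.16, adjusted p = 0.000751). It was lower again in L1, at 11.8 and 19.2 (log2 difference -1.16, SE 0.27, adjusted p = 0.0173). *spe-15* rose from 1.75, 2.11 and 1.83 to 4.76, 4.92 and 6.73 (1.43, SE 0.30, adjusted p = 0.00228), and *spe-6* fell from 2.21, 2.27 and 2.59 to 0.99, 0.54 and 0.61 (-1.67, SE 0.35, adjusted p = 0.00252). *spe-15* and *spe-39* moved against the *msp* genes at this step, and *spe-6* with them.

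In early embryos *spe-6* was not called in any mutant. It was at 3.46, 3.31 and 5.38 in *dpy-21*, all above the N2 libraries (log2 difference 0.98, adjusted p = 0.0888). In *dpy-27* it was at 1.71, 1.64 and 0.00 and in the heterozygotes at 2.07 and 2.10, all below the N2 libraries (log2 differences -1.95 and -0.13, adjusted p = 0.169 and 0.843). The side on which it lay therefore differed between mutants, whereas the *msp* sums were low in all of them. In BS553 it was at 2.81, 2.86 and 2.91, also above all N2 libraries, with a log2 difference of -0.18 for N2 minus BS553. *spe-39* differed from N2 by a log2 difference of 0.12 in *dpy-27* and *spe-15* by 0.22.

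In the spike-in L1 libraries the sperm protein genes were barely detected. *C. elegans* totals were 1533531 to 3215078 counts, of which members took 0.00358% to 0.00535%. The 30 *msp* genes together had 0, 4 and 1 counts in N2 and 1, 2 and 0 in *set-4*, a CPM (counts scaled to library size) of at most 2.19 with exact Poisson upper bounds of up to 5.62, which cover counting error only. The 7 *ssp* genes had no count in any of the 6 libraries, and 47 to 50 of the 58 members had none. The 2 members with a mean of at least 10 counts were *spe-39*, with 46, 43 and 75 counts in N2 and 64, 75 and 70 in *set-4* (log2 difference -0.30 after scaling to *C. briggsae*, adjusted p = 0.366), and *spe-15*, with 21, 34 and 24 against 27, 22 and 33 (-0.66, SE 0.37, adjusted p = 0.193). Neither was called by edgeR or by DESeq2, and neither had an unadjusted p under 0.05, where edgeR called 5.4% of all genes tested higher and 20.8% lower.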

How the data were processed

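Single-end, strand-specific mRNA-seq reads of pooled collections were base-called with CASAVA 1.8, aligned to WS220 with TopHat2 2.0.11 and turned into FPKM per gene with Cufflinks 2.2.0, per the labels (the submitters' processing notes). FPKM values for 79 libraries were deposited by the authors in tables that also hold 13 columns not matched to a sample, which were not used. The authors made the spike-in counts with HTSeq 0.6.0 over both species. Their rows that name no gene, 24.5% to 26.9% of *C. briggsae* counts, stayed out of library sizes and tests.

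FPKM values were summed per family. For tests, each library was divided by its median-of-ratios factor, and log2(FPKM + 0.1) was fitted with limma 3.58.1 (lmFit, eBayes with trend, R 4.3.3) over all genes whose 2 group means averaged over 1 FPKM, with Benjamini-Hochberg adjustment at 0.05. Fold changes on this scale understate low genes. Counts were tested with edgeR 4.0.16 (quasi-likelihood, TMM over *C. briggsae*, mean of at least 10 counts), with DESeq2 1.42.0 as an alternative. The tests were checked on simulated data. Genes with a blank value (78) were left out of the fits that need them. The read depth of the FPKM libraries is unknown except as a relative step size, and p-values measure only the spread between libraries of a group.

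Members, gene lists and tests were chosen with earlier results of these data known. Members named are up to 8 with the largest change among those called in a comparison, the 8 with the highest group median, and the *spe* genes by role. *spe-19*, up to 2.72 FPKM, was not in that list. Alternatives were a pseudocount of 1, no filter, no scaling, a replicate block, the duplicated library kept and each library left out. Replicate numbers paired the samples, with every same-number correlation of deviations over 0.1, for *dpy-21* early embryos (0.164 to 0.216), *set-4* L3, *set-1* larvae and *dpy-27* RNAi L3. RefSeq names (WBcel235) gave chromosomes and neighbours only, and no sequence was used. Values of 1 member are not reported here singly.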

Additional observations from a re-analysis of the deposited data

Results flagged for a closer look

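*dpy-21* L3 replicate 4 stood apart from its group in 3 families, with a summed *msp* level of 78.4 FPKM (the next library was at 2.76), a summed *ssp* level of 4.54 (next 0.204) and a summed *ssq* level of 1.69 (next 0.448). In *dpy-27* RNAi mixed embryos, replicate 3 had a summed *msp* level of 6.28 where the next was 1.90. *set-4* L3 replicate 2 had a summed *ssq* level of 0.984 (next 0.176), and vector RNAi L3 replicate 3 a summed *ssp* level of 1.21 where the others were at 0. Each gap, divided by the range of its group, was above Dixon's critical value for 4 libraries. These were 6 of 36 combinations of group and family examined. Chance marks about 1 in 20 only for independent, normally distributed values. Here 3 of the 6 came from 1 library, and others rested on sums near 0. The count therefore cannot be set against that rate.

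The median *msp* sum of N2 minus that of BS553 was -8.39 in comma embryos, where all N2 libraries were lower, and 58.2 in L1 larvae, where all N2 libraries were higher once the duplicated library was left out. The difference between these stages was not tested. The spike-in N2 L1 libraries, with 0, 4 and 1 *msp* counts, did not share the high N2 L1 sums.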

How the results depend on the processing

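Numbers of members called moved by over 1.5 times in these cases. With no filter on low values they were 0 for early embryo sexes, 9 for *dpy-27* heterozygotes, 2 for *dpy-21* early embryos, 1 for *dpy-27* against heterozygotes, 2 for *dpy-27* L1, 8 for comma to L1 and 2 for L1 to L3. *dpy-21* early embryos gave 11 with a pseudocount of 1 and 15 on FPKM without scaling, and comma to L1 gave 1 with the duplicated library kept. With 1 library left out the numbers ran from 0 to 11 for early embryo sexes, 0 to 13 for L1 sexes, 0 to 30 for L3 sexes, 14 to 24 for *dpy-27* early embryos, 0 to 20 for heterozygotes, 0 to 23 for *dpy-21* early embryos, 0 to 14 for *dpy-27* L1, 24 to 28 for early to comma, 1 to 17 for comma to L1, 0 to 11 for L1 to L3 and 0 to 1 for the spike-in counts, and stayed at 0 in the other comparisons. The only direction that turned was that of *spe-39* in L3 sexes, 0.05 with all libraries, -0.11 without BS553 L3 replicate 1 and 0.16 without BS553 L3 replicate 2. Scaling the libraries left the median *msp* sum of every group within its SD.

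With the replicate block, *dpy-21* early embryos, where the numbers pair the libraries, gave 8 calls in place of 7, and *set-4* L3, *set-1* larvae and *dpy-27* RNAi L3 stayed at 0. Where libraries share only a number, the block gave 4 for heterozygotes and 7 for early embryo sexes, and 2 for comma to L1. No paired analysis was possible for L1 sexes because the libraries kept share fewer than 2 numbers.

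Low levels limit single members: 1 FPKM in the shallow libraries rests on few reads, and paralogs share them.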
